A study of Mus musculus with 14 samples.

Results

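The transcripts of 10 transcription factors that mark naive mouse pluripotency were followed through 14 libraries: Klf2, Klf4, Klf5, Esrrb, Tfcp2l1, Tbx3, Prdm14, Nr0b1, Nr5a2 and Zfp42. The genes were taken by symbol, and 10 of 10 were found both among the 24345 genes of the RNA-seq tables and among the 24394 genes of the RNA immunoprecipitation (RIP) tables. The naive state is the ground state of the preimplantation epiblast, which mouse embryonic stem cells keep in culture. Leukemia inhibitory factor (LIF) acts through STAT3 on Klf4 and Tfcp2l1, relief of Tcf7l1 repression by the Wnt pathway acts on Esrrb, and FGF signalling through ERK drives exit from the state. The factors bind many of each other's genes, and they are lost as cells move towards the primed state.

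The 14 libraries formed 7 groups of 2. Dppa5a_KD were embryonic stem cells with the RNA-binding protein Dppa5a knocked down, and KD_control were the wild-type, untreated stem cells of the same experiment; the labels give no method for the knockdown. A separate deposit held mESC, untreated wild-type stem cells, and MEF, primary embryonic fibroblasts that were also wild type and untreated. The RIP libraries came from stem cells that overexpress 3Flag-Dppa5a in all groups. HU_Flag_RIP was recovered by Flag antibody from cells whose treatment is given as HU, an abbreviation the labels do not define, Flag_RIP with the Flag antibody from untreated cells, and IgG_RIP with control IgG from untreated cells. The stem cells were grown with LIF and serum replacement on inactivated fibroblast feeders and passaged without feeders, on gelatin, before harvest. The labels call the line of every stem-cell group home made. Eif2s3y, a gene of the Y chromosome, was listed at 0 in both Dppa5a_KD and both KD_control libraries and stood at 43.2 and 41.2 FPKM in mESC; whether both experiments used the same line was not tested. The labels do not say if the 2 libraries of a group were separate cultures; the spread that the p-values measure may therefore be technical. In such bulk libraries, fewer cells with a transcript and less transcript per cell cannot be told apart.

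RNA-seq levels are FPKM (fragments scaled to transcript length and to library size), deposited by the authors, and rest on an estimated 18332625 to 25337449 effective fragments per library. RIP libraries held 3472020 to 13033886 counts, of which the ribosomal precursor Rn45s took 39.33% to 73.17%, and 1137 to 4054 counts per library fell on the 10 factors together. The targeted gene followed its labels: Dppa5a stood at 101 and 358 FPKM in Dppa5a_KD, against 5126 and 5417 FPKM in KD_control. The stem-cell identity genes Pou5f1, Sox2, Nanog, Sall4 and Utf1 summed to 2002 to 2850 FPKM in Dppa5a_KD, 2147 to 2195 FPKM in KD_control, 1379 to 2051 FPKM in mESC and at most 0.868 FPKM in MEF. A sum of 12 fibroblast markers was at most 11.04 FPKM in Dppa5a_KD, 29.6 to 30.6 FPKM in KD_control, 7.22 to 10.2 FPKM in mESC and 5492 to 6446 FPKM in MEF. Every stem-cell library thus lay far below MEF in fibroblast markers.

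In mm10, the genes lie at chr8:72319062-72321654 (Klf2), chr4:55527137-55532475 (Klf4), chr14:99298691-99313409 (Klf5), chr12:86361117-86521628 (Esrrb) and chr1:118627945-118685168 (Tfcp2l1). The others lie at chr5:119670862-119684724 (Tbx3), chr1:13113428-13127163 (Prdm14), chrX:86191775-86195946 (Nr0b1), chr1:136843584-136960448 (Nr5a2) and chr8:43295067-43307009 (Zfp42). These are the spans of the genes in the deposited tables, which give 1 value per gene and none per exon.

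Promoter sequence is shown for the 3 factors whose levels differed most between groups, Zfp42, Nr0b1 and Esrrb, as the 250 bases before an annotated start, 5′ to 3′ on the gene's strand. The windows are from RefSeq (GRCm38.p6, the assembly of mm10), which held windows for 7 of the 10 factors; Klf5, Tbx3 and Prdm14 are named only. Capitals mark matches, on either strand, to CCACCC (the CACCC box that Krüppel-like factors bind), ATGCAAAT (the octamer that POU factors bind) or TTCNNNGAA (the STAT motif).
Zfp42, chr8:43307010-43307259, minus strand: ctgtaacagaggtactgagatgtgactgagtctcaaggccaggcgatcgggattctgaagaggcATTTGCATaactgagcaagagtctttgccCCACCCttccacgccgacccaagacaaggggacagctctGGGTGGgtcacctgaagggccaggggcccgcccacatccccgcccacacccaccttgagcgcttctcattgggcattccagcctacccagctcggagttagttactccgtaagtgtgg
Nr0b1, chrX:86191525-86191774, plus strand: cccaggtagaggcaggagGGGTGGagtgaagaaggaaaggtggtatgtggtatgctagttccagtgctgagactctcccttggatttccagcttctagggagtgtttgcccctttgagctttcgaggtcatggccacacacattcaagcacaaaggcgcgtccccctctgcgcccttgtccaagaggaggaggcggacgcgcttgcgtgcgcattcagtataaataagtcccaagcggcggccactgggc
Esrrb, chr12:86360867-86361116, plus strand: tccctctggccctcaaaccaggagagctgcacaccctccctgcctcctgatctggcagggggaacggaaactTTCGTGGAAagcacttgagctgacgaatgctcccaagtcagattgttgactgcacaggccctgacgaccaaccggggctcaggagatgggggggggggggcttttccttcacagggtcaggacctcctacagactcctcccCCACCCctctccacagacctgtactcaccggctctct
The Zfp42 window held an octamer on the opposite strand, 186 to 179 bases before the start, a motif found in 1.6% of all 32851 RefSeq windows of this length. It also held 2 CACCC boxes. The Nr0b1 window held 1 CACCC box, 232 to 227 bases before the start. The Esrrb window shown, the more upstream of 2, held a STAT motif 178 to 170 bases before its start and a CACCC box 37 to 32 bases before that start. These motifs occur in 7.02% and 28.1% of all windows. The other Esrrb window held a CACCC box and no STAT motif. Across the 9 windows of the 7 factors, Klf2, Esrrb (both of its windows), Nr0b1, Nr5a2 (1 of its 2 windows) and Zfp42 held a CACCC box, and none of the motifs searched was found for Klf4 and Tfcp2l1. Neither AAGGTCA, the motif of Esrrb and Nr5a2 themselves (4.08% of all windows), nor CCATNTT, a core of the YY1 motif to which the Zfp42 protein is related (12.4%), was found in any of the 9. The motifs do not overlap one another in the windows shown. A match is a string of letters and not a measured binding site.

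In mESC the 10 factors summed to 825.4 and 1078.6 FPKM, against 66.9 and 47.8 FPKM in MEF. Zfp42 (Rex1), a zinc-finger protein widely used as a reporter of the naive state, made up 49.2% and 46.6% of the mESC sum. Esrrb followed with a mean of 105.9 ± 16.7 FPKM, level with Klf5 at 105.8 ± 10.3 FPKM (SD, n = 2 each). Prdm14 was the lowest of the factors in mESC, with 8.51 ± 1.87 FPKM (SD, n = 2). In MEF the order was another one: Klf4, Klf2 and Klf5 made up 34.4%, 33.8% and 23.7% of the mean sum, and Tbx3 7.72%.

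**Figure D1:**
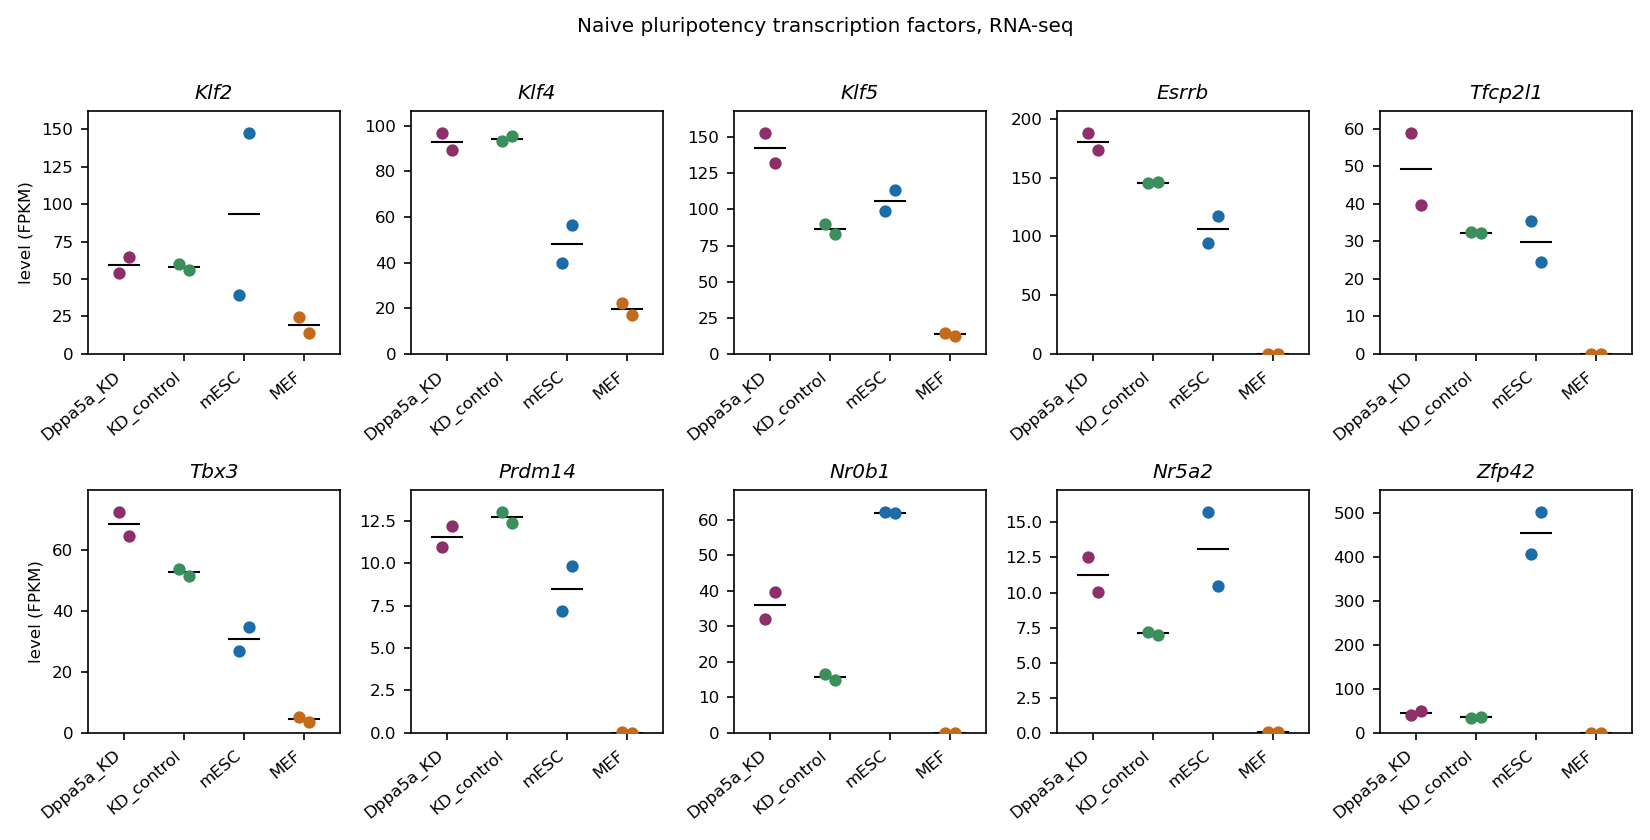
Level (FPKM, linear axis from 0, a scale of its own per gene) of the 10 factors in the 2 libraries of each RNA-seq group; points are libraries and bars their mean. Zfp42 stood at 406 and 502 FPKM in mESC and at no more than 50.2 FPKM in any Dppa5a_KD or KD_control library, and Nr0b1 lay higher in both Dppa5a_KD libraries than in both KD_control libraries.

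The comparison of mESC with MEF asks how far these factors separate stem cells from fibroblasts. All 10 were called higher in mESC than in MEF by limma (adjusted p under 0.05 over all genes), in a comparison in which 56.7% of 12875 genes were called and 30.6% were called higher. Their median log2 fold change, taken on log2(FPKM + 1), was 3.47, against 0.15 over all genes; this scale understates the change of a gene that is near 0 in one group. Of the 10, 6 passed the filter of 1 FPKM through mESC alone, so their difference follows in part from the filter. They were Esrrb, Tfcp2l1, Prdm14, Nr0b1, Nr5a2 and Zfp42, and none of them exceeded 0.0727 FPKM in a MEF library.

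Among these 6, Esrrb, an orphan nuclear receptor that can replace Nanog in self-renewal, had 94.1 and 117.7 FPKM in mESC and 0.0364 and 0.0226 FPKM in MEF, the MEF values resting on 4 and 2 effective fragments. Its log2 fold change was 6.69 (SE 0.21, limma adjusted p = 5.75e-05). Tfcp2l1, a CP2-family factor downstream of STAT3, had 35.4 and 24.4 FPKM in mESC and 0.0727 and 0.0688 FPKM in MEF, a log2 fold change of 4.83. Prdm14, a PR-domain protein that represses FGF receptor signalling and de novo DNA methylation, had 7.18 and 9.83 FPKM in mESC; in MEF it was at 0.0371 FPKM in one library and listed at 0 in the other. The mESC and MEF libraries of these 3 genes did not overlap, which follows in part from the filter that they passed through mESC alone.

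Nr0b1 (Dax1), a nuclear receptor family member without the usual DNA-binding domain that acts as a co-regulator of Nr5a2 and Esrrb, had 62.2 and 61.9 FPKM in mESC; in MEF it was listed at 0 and at 0.0590 FPKM. Nr5a2 (LRH-1), a nuclear receptor that binds regulatory DNA of Pou5f1, had 15.7 and 10.5 FPKM in mESC and 0.0340 and 0.0441 FPKM in MEF. Zfp42 had 406 and 502 FPKM in mESC; in MEF it was at 0.0567 FPKM in one library and listed at 0 in the other. Its log2 fold change of 8.78 (SE 0.21, limma adjusted p = 5.21e-05) was exceeded by only 2 of the 12875 genes.

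The Krüppel-like factors and Tbx3 were present in both cell types. Klf2, whose protein ERK signalling destabilises, had 39.5 and 147 FPKM in mESC and 24.5 and 14.2 FPKM in MEF. The mESC libraries differed from each other more than the lower one differed from MEF. The log2 fold change of Klf2 was 1.97 (SE 0.65, limma adjusted p = 0.0459), and it became 1.04 without the second mESC library. The call of Klf2 ended in 5 of 11 alternatives: without that library or either MEF library, without a filter on low values and after median-ratio scaling, with an adjusted p of up to 0.295. Klf4, a LIF-STAT3 target and reprogramming factor, had 39.85 and 56.7 FPKM in mESC and 22.4 and 17.1 FPKM in MEF, a log2 fold change of 1.24 (SE 0.27, limma adjusted p = 0.0125). Its call ended when the second mESC library or either MEF library was left out, with an adjusted p of up to 0.154. Klf5, which keeps epiblast cells from the primitive endoderm fate, had 98.5 and 113 FPKM in mESC and 14.6 and 12.6 FPKM in MEF, a log2 fold change of 2.87. Tbx3, a T-box factor linked to LIF and PI3K signalling, had 26.8 and 34.8 FPKM in mESC and 5.16 and 3.70 FPKM in MEF, a log2 fold change of 2.55. The calls of Klf5 and Tbx3 held under all 11 alternatives run. So did those of the 6 genes near 0 in MEF, which adds little, since these passed the filter through mESC alone.

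The knockdown asks what changes in stem cells when Dppa5a is reduced. Nr0b1, Klf5 and Nr5a2 were called higher in Dppa5a_KD than in KD_control, and none of the 10 was called lower. In this comparison 37.4% of 12345 genes were called by limma, 13.6% higher and 23.8% lower, so 3 of 10 higher is to be read against 13.6% of all genes. The median log2 fold change was 0.36 over the 10 and -0.11 over all genes. At an unadjusted limma p under 0.05, Klf5, Tfcp2l1, Tbx3, Nr0b1, Nr5a2 and Zfp42 were higher and none of the 10 was lower. Of all 12345 genes, 6131 had such a p in either direction. How these split by direction was not counted, so nothing is read from the members at this threshold.

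Nr0b1 rose most. It had 32.0 and 39.8 FPKM in Dppa5a_KD, against 16.5 and 14.9 FPKM in KD_control. The log2 fold change was 1.14 (SE 0.14, limma adjusted p = 0.00818), higher in both libraries, and 191 of the 12345 genes had a higher one. The call held under all 11 alternatives, between 0.99 and 1.29.

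Klf5 had 153 and 132 FPKM in Dppa5a_KD, against 89.8 and 82.7 FPKM in KD_control. Both knockdown libraries lay above both controls, with a log2 fold change of 0.71 (SE 0.14, limma adjusted p = 0.0184). Nr5a2 had 12.5 and 10.0 FPKM in Dppa5a_KD, against 7.21 and 6.96 FPKM in KD_control, a log2 fold change of 0.59 (SE 0.14, limma adjusted p = 0.029). The calls of both genes ended when either KD_control library was left out, with adjusted p-values of up to 0.269 for Klf5 and 0.2 for Nr5a2. That of Nr5a2 also ended without a filter on low values, after rescaling to a common sum, and in a fit over all 8 libraries. The KD_control libraries were the most alike of any pair, with a correlation of 0.997 across genes, against 0.977 in Dppa5a_KD.

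In 4 further factors both knockdown libraries lay above both controls without passing the test. How many of all genes were ordered in this way was not counted, so the 4 are only described. Tfcp2l1 had 58.8 and 39.8 FPKM in Dppa5a_KD, against 32.5 and 32.1 FPKM in KD_control (log2 fold change 0.57, limma adjusted p = 0.0858). Tbx3 had 72.6 and 64.6 FPKM in Dppa5a_KD, against 53.7 and 51.7 FPKM in KD_control (0.37, adjusted p = 0.0608). The Dppa5a_KD libraries of Tfcp2l1 differed more from each other than the lower one did from the controls. Zfp42 had 41.5 and 50.2 FPKM in Dppa5a_KD, against 34.3 and 36.6 FPKM in KD_control (0.36, adjusted p = 0.0941). Esrrb had 188 and 173 FPKM in Dppa5a_KD, against 145.5 and 146.2 FPKM in KD_control (0.30, adjusted p = 0.12). Tbx3 and Zfp42 passed the threshold after median-ratio scaling, Zfp42 also after rescaling to a common sum, and Tfcp2l1 with a replicate block (adjusted p = 0.0193). All 4 passed when either Dppa5a_KD library was left out, and none did when either KD_control library was.

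The remaining 3 were near their controls. Klf2 had 53.9 and 64.8 FPKM in Dppa5a_KD and 60.3 and 55.7 FPKM in KD_control, with a log2 fold change of 0.03 (SE 0.14). Klf4 had 96.8 and 89.4 FPKM in Dppa5a_KD and 93.3 and 95.4 FPKM in KD_control, with a log2 fold change of -0.02 (SE 0.11). The libraries of these 2 genes overlapped between the groups. Prdm14 had 10.98 and 12.2 FPKM in Dppa5a_KD, just below the 13.0 and 12.4 FPKM in KD_control, with a log2 fold change of -0.13 (SE 0.11, limma adjusted p = 0.393). The sign of each of these 3 differences changed under at least 1 alternative.

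**Figure D2:**
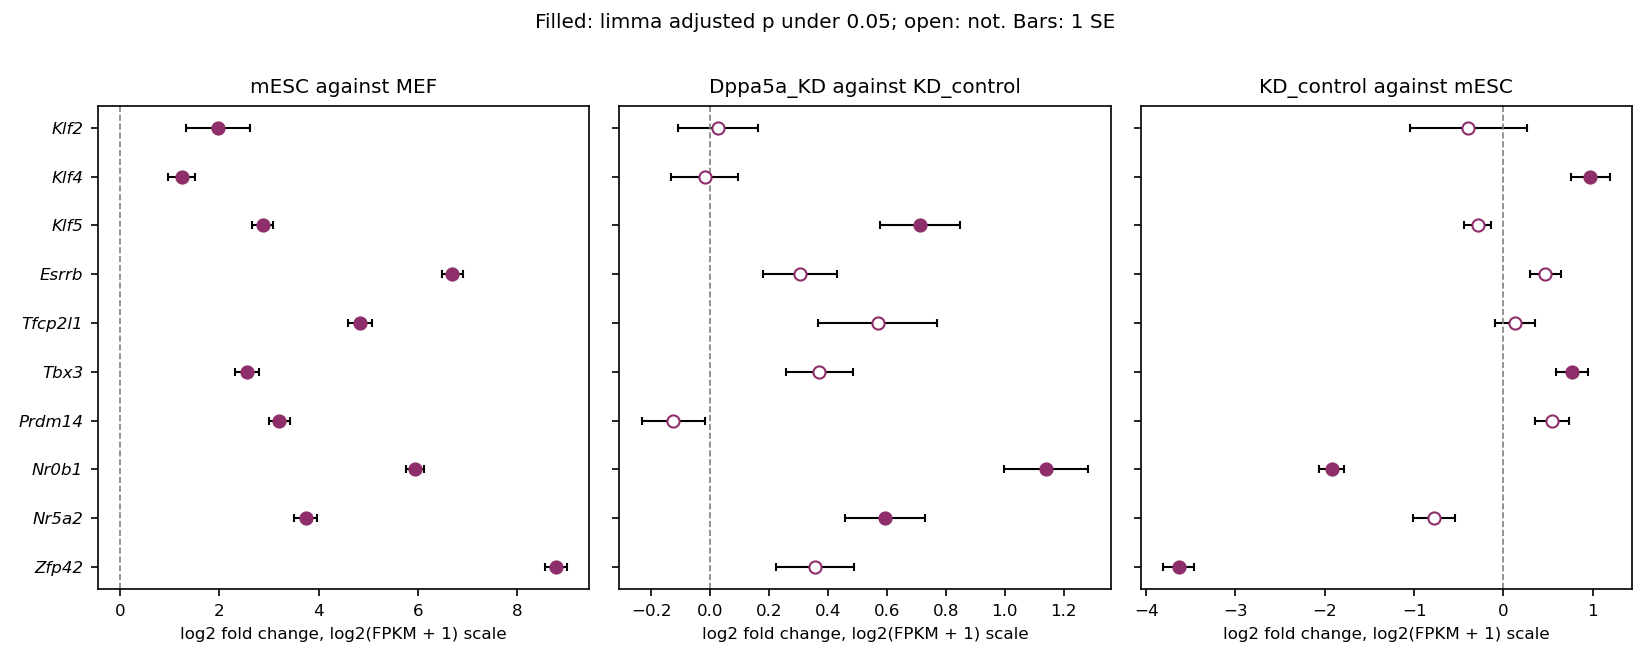
Difference of mean log2(FPKM + 1) for each factor in the 3 RNA-seq comparisons, each panel with its own axis range; bars are 1 SE and filled points have a limma adjusted p under 0.05. Nr0b1 was higher in Dppa5a_KD than in KD_control (1.14) and lower in KD_control than in mESC (-1.92); both comparisons use the same KD_control libraries.

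Markers of other cell types differed too between these groups. Of the 12 fibroblast markers 3 were tested, and all 3 were called lower in Dppa5a_KD: Mmp2 (-1.59), Pdgfrb (-1.30) and Thy1 (-0.98). The stem cells had been on fibroblast feeders. The sum of the 12 was 11.01 and 11.04 FPKM in Dppa5a_KD, against 29.6 and 30.6 FPKM in KD_control. Of the 12, 8 were below 1 FPKM in both Dppa5a_KD libraries and 9 in both KD_control libraries. Col1a1, the highest of them in MEF, averaged 0.446 FPKM in Dppa5a_KD and 0.773 FPKM in KD_control, against 2560 FPKM in MEF. Which cells held Mmp2, Pdgfrb and Thy1 was not tested. The summed FPKM of 10 primitive endoderm markers was 25.5 to 34 in Dppa5a_KD and 39.2 to 40.5 in KD_control. Of 7 tested, 1 was called higher, Sox7 (0.74), and 5 lower, among them Amn (-1.26) and Gata4 (-1.06). The 8 trophectoderm markers summed to 48.7 to 50.6 FPKM in Dppa5a_KD and 60.5 to 63.0 FPKM in KD_control. Of 5 tested, 2 were called higher, among them Tead4 (1.61), and 3 lower, among them Krt18 (-1.40) and Tfap2c (-1.14). Over all genes, 13.6% were called higher and 23.8% lower. Genes of the 2-cell-like state summed to 10.2 to 14.9 FPKM in Dppa5a_KD and 11.7 to 12.3 FPKM in KD_control. The part of these cells in the factors' changes was not tested.

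The genes around the factors were described from lists of their inputs and neighbours, whose counts are to be read against the 13.6% of all genes called higher and the 23.8% called lower. Of 12 LIF-STAT3 genes, none was called higher and 2 were called lower in Dppa5a_KD: the kinase gene Pim1, a STAT3 target, with a log2 fold change of -0.87, and Stat3 itself with -0.47. Stat3 had 27.6 and 26.2 FPKM in Dppa5a_KD, against 36.9 and 38.2 FPKM in KD_control. Of 10 Wnt-TCF genes, 1 was called higher, Ctnnb1 (beta-catenin, 0.57), and 3 were called lower, among them the TCF factors Lef1 (-0.61) and Tcf7 (-0.51). The LIF and Wnt lists had medians of -0.20 and -0.06, near that of all genes, and their shares of calls were close to, or below, those of all genes.

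FGF-ERK genes included the largest changes among the inputs. Of 11 tested, 4 were called higher and 3 lower in Dppa5a_KD. Spry4, a feedback inhibitor induced by ERK, had 110.7 and 108.6 FPKM in Dppa5a_KD, against 19.7 and 20.0 FPKM in KD_control, a log2 fold change of 2.41. Dusp6, the ERK phosphatase, had 81.3 and 83.2 FPKM in Dppa5a_KD, against 16.25 and 16.2 FPKM in KD_control, a log2 fold change of 2.27. The ERK target Etv4 rose by 0.78 on the log2 scale. The 3 called lower, named after their values were seen, were Mapk3 (-0.91), Fgf4 (-0.42) and Fgfr1 (-0.39). Genes of this list were thus called in both directions, and its median was only 0.19.

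None of the 4 core factors Pou5f1, Sox2, Nanog and Sall4 was called in either direction by limma, and none had an adjusted p under 0.294. Of 16 other genes of the naive state, 8 were called higher and 4 lower in Dppa5a_KD, with a median of 0.53. Gbx2, a homeobox STAT3 target, had 89.1 and 99.7 FPKM in Dppa5a_KD, against 10.7 and 9.98 FPKM in KD_control, a log2 fold change of 3.07. Fbxo15, an F-box gene known as a reporter of pluripotency, had 18.2 and 20.1 FPKM in Dppa5a_KD, against 119.9 and 110.4 FPKM in KD_control, a log2 fold change of -2.53. Dppa3 (Stella) fell by 1.71 on the log2 scale. Genes of this list moved both ways, and its extremes lay beyond those of the 10 factors.

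Of 13 formative and primed genes tested, 3 were called higher and 2 lower, together about the share of all genes called (37.4%). Foxd3, a forkhead factor, rose by 1.96, and Otx2, a driver of the formative state, had 1.11 and 0.926 FPKM in Dppa5a_KD, against 3.46 and 3.47 FPKM in KD_control, with a log2 fold change of -1.15. Sox3 fell by 0.88. Of the 18 closest paralogues tested, 3 were called higher and 6 lower, against 13.6% and 23.8% of all genes. Among the lower ones were Klf6 (-1.06), Klf9 (-0.94) and Klf17 (-0.81). The higher ones, named after their values were seen, were Klf13 (1.29), Klf12 (0.94) and the Esrrb relative Esrra (0.40), so Krüppel-like genes were called in both directions.

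**Figure D3:**
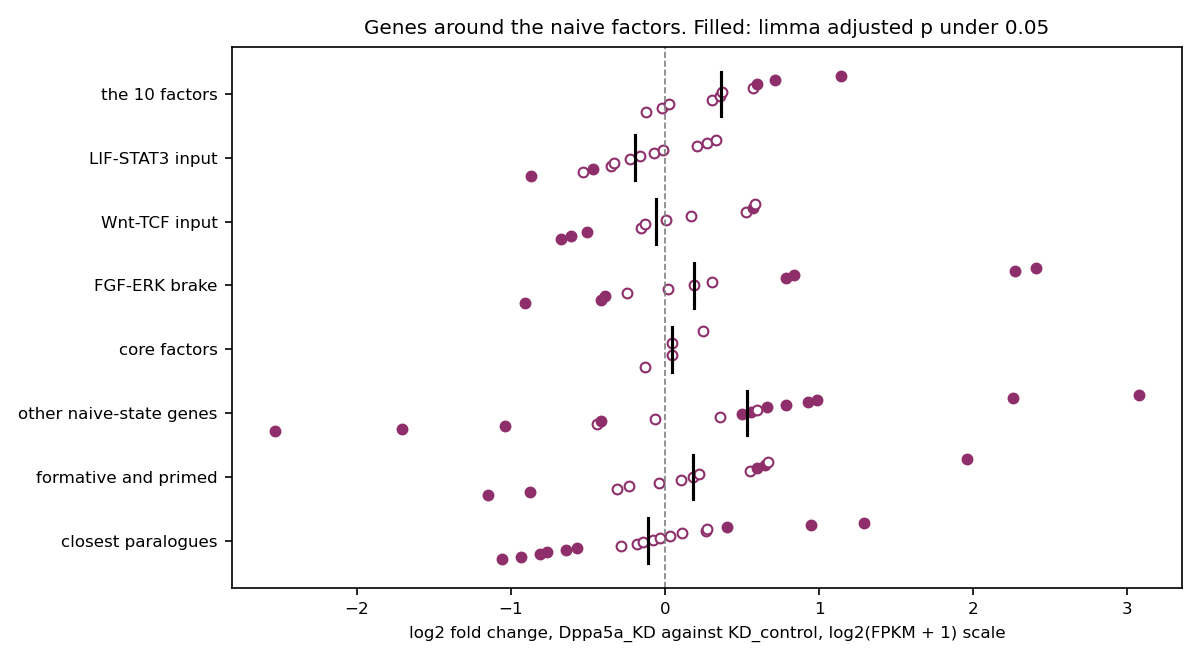
Log2 fold change in Dppa5a_KD against KD_control, on the log2(FPKM + 1) scale, for each tested gene of the 10 factors and of 7 related lists; filled points have a limma adjusted p under 0.05 and the vertical bar is the list's median. The 10 factors spanned -0.13 to 1.14, while the other naive-state genes spanned -2.53 to 3.07.

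KD_control and mESC are both labelled wild-type, untreated stem cells, and setting them side by side places the knockdown experiment's starting level of the factors. They belong to separate deposits, so cell stock, culture and group cannot be told apart. Eif2s3y also set the experiments apart, as given above. So did Dppa5a itself, at 5126 and 5417 FPKM in KD_control, against 1485 and 1818 FPKM in mESC. Its log2 fold change was 1.68 (SE 0.23, limma adjusted p = 0.012). Of 12595 genes, 41.4% were called by limma, 26.5% higher and 15% lower. Of the 10 factors 2 were called higher in KD_control than in mESC and 2 lower, with a median of -0.08, against 0.19 over all genes.

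Zfp42 differed most. It had 34.3 and 36.6 FPKM in KD_control, against 406 and 502 FPKM in mESC. The log2 fold change was -3.63 (SE 0.18, limma adjusted p = 0.00715), and 8 of the 12595 genes had a lower one. Nr0b1 had 16.5 and 14.9 FPKM in KD_control, against 62.2 and 61.9 FPKM in mESC, a log2 fold change of -1.92 (SE 0.14, limma adjusted p = 0.00715). Both calls held under all 11 alternatives, the change of Zfp42 lying between -3.82 and -3.48 and that of Nr0b1 between -2.10 and -1.85.

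Klf4 had 93.3 and 95.4 FPKM in KD_control, against 39.85 and 56.7 FPKM in mESC, a log2 fold change of 0.97 (SE 0.22, limma adjusted p = 0.0297). Tbx3 had 53.7 and 51.7 FPKM in KD_control, against 26.8 and 34.8 FPKM in mESC, a log2 fold change of 0.77 (SE 0.18, limma adjusted p = 0.0339). Both calls ended when either KD_control library was left out, with an adjusted p of up to 0.202 for Klf4 and 0.32 for Tbx3. The groups did not overlap for either gene.

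The other 6 did not pass the test. Esrrb had a log2 fold change of 0.47 (145.5 and 146.2 FPKM in KD_control, against 94.1 and 117.7 FPKM in mESC) and Prdm14 of 0.54 (13.0 and 12.4 FPKM in KD_control, against 7.18 and 9.83 FPKM in mESC). Nr5a2 had -0.78 (7.21 and 6.96 FPKM in KD_control, against 15.7 and 10.5 FPKM in mESC; limma adjusted p = 0.057) and Klf5 -0.29 (89.8 and 82.7 FPKM in KD_control, against 98.5 and 113 FPKM in mESC). Klf2 and Tfcp2l1 lay between the mESC libraries, and the sign of their difference depended on which mESC library was used. For Klf2 the log2 fold change was -1.33 without the first mESC library and 0.54 without the second.

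The make-up of the set followed. Without Zfp42, the factors summed to 677.9 and 625.8 FPKM in Dppa5a_KD, 511.9 and 498.2 FPKM in KD_control and 419.3 and 576.4 FPKM in mESC. Zfp42 held 5.77% and 7.42% of the 10 factors' sum in Dppa5a_KD, 6.27% and 6.85% in KD_control, and 49.2% and 46.6% in mESC. Esrrb was the most abundant of the 10 in the knockdown experiment, with 26.1% and 25.6% of the sum in Dppa5a_KD and 26.6% and 27.3% in KD_control.

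**Figure D4:**
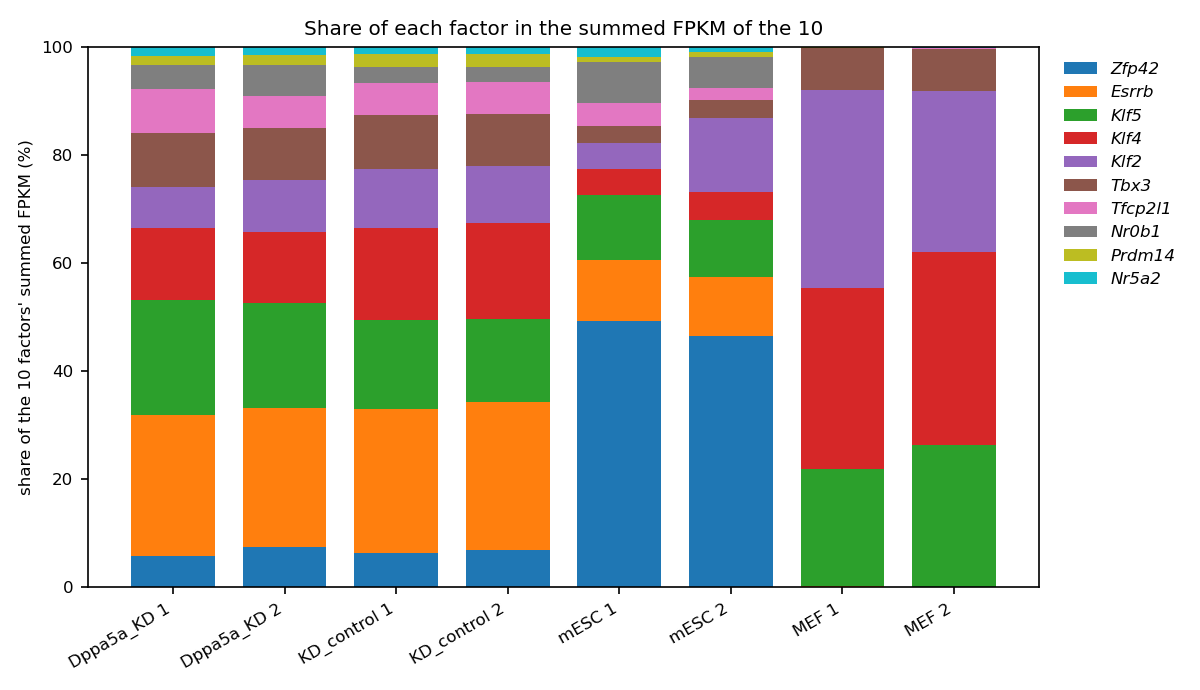
Share of each factor (%) in the summed FPKM of the 10, per RNA-seq library. Zfp42 takes 49.2% and 46.6% in mESC and 5.77% to 7.42% in the Dppa5a_KD and KD_control libraries, and the MEF sum consists almost wholly of Klf4, Klf2, Klf5 and Tbx3.

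Related lists in KD_control against mESC were mixed, at a background of 26.5% of genes called higher and 15% lower. Of the 12 LIF-STAT3 genes 4 were called higher, among them Cish (1.12) and Pim1 (1.92), and 1 lower, the receptor gene Lifr (-1.06), together about the share of all genes called (41.4%). Of the 16 other naive-state genes 1 was called higher, Pecam1 (1.68), and 3 lower, among them the threonine dehydrogenase gene Tdh (-2.40) and Gbx2 (-1.60). Of the 4 core factors, Nanog (0.56) was called higher. The 10 primitive endoderm markers summed to 39.2 to 40.5 FPKM in KD_control and 106 to 164 FPKM in mESC, with 8 of 10 called lower. Of 4 fibroblast markers tested, 2 were called higher in KD_control, Pdgfrb (2.24) and Mmp2 (1.82), and none lower. Of the 12 listed, 9 were below 1 FPKM in both KD_control libraries and 8 in both mESC libraries. The part of either marker list in the difference of the factors was not tested.

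Taken over the 4 RNA-seq groups, the factors fell into different orders. Dppa5a_KD had the highest mean for Klf5, Esrrb, Tfcp2l1 and Tbx3, KD_control for Klf4 and Prdm14, and mESC for Klf2, Nr0b1, Nr5a2 and Zfp42. Of the highest group's mean, KD_control held 7.805% for Zfp42 and 25.3% for Nr0b1, and at least 54.1% for each other factor. MEF was the lowest group for each of the 10, with 20.8% and 20.9% of the highest mean for Klf2 and Klf4, 9.54% for Klf5 and 6.46% for Tbx3. Neighbours in these orders whose libraries overlapped were Dppa5a_KD, KD_control and mESC for Klf2, Dppa5a_KD and KD_control for Klf4, KD_control and mESC for Tfcp2l1, and Dppa5a_KD and mESC for Nr5a2.

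The likeness of profiles was measured as the root mean square difference of centred log2(FPKM + 1) values, as a description. Over the 6 stem-cell libraries, Esrrb and Tbx3 (0.161) and Klf4 and Tbx3 (0.167) were the closest pairs of factors, while Zfp42 was no closer than 1.05 to any other, that one being Nr0b1. Over all 8 RNA-seq libraries and 8832 other genes, Klf4 was closest to Pold1 (0.0791) and Tkt (0.114), Tbx3 to Npr1 (0.113) and Mthfd1 (0.15), Prdm14 to Rbpms2 (0.113) and Pced1b (0.125), and Klf5 to Slc25a13 (0.128) and Nkx6-2 (0.162). Pold1, the catalytic subunit of DNA polymerase delta, averaged 66.4 ± 8.09 FPKM in Dppa5a_KD, 70.8 ± 2.66 FPKM in KD_control, 34.6 ± 11.2 FPKM in mESC and 13.5 ± 3.56 FPKM in MEF (SD, n = 2 each). The nearest gene to Zfp42 was L1td1 at 0.919, so no gene searched had a closely matching profile.

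RIP asks which transcripts are recovered with Dppa5a. None of the 10 factors' transcripts was called more recovered in HU_Flag_RIP or Flag_RIP than in IgG_RIP by edgeR's quasi-likelihood test. That of Tfcp2l1 was called less recovered in both. IgG_RIP came from untreated cells only, so HU_Flag_RIP differs from it in antibody and treatment together. No library held unprecipitated RNA of HU-treated cells, so abundance under HU and recovery cannot be told apart. Among all 10473 genes tested, 2.32% were called in Flag_RIP against IgG_RIP, 1.16% in each direction, and 2.86% in HU_Flag_RIP against IgG_RIP, 1.44% higher and 1.42% lower. DESeq2 called the same single factor in both comparisons. Recovery is given as CPM, counts scaled to the TMM-adjusted library size, which are not levels per length and are compared only within a gene.

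Tfcp2l1 had 23.6 and 45.8 CPM in HU_Flag_RIP, 41.2 and 37.6 CPM in Flag_RIP and 132 and 116 CPM in IgG_RIP, resting on 178 to 683 counts per library. All 4 Flag libraries lay below both IgG libraries. The log2 fold change was -1.84 in HU_Flag_RIP against IgG_RIP (SE 0.32, edgeR adjusted p = 0.00301) and -1.65 in Flag_RIP against IgG_RIP (SE 0.32, edgeR adjusted p = 0.0078). Both comparisons use the same IgG libraries. The direction held in all 12 alternatives of each comparison, and both calls ended when either IgG library was left out, with adjusted p-values of up to 0.0972 and 0.194.

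Klf2 had 21.3 and 6.73 CPM in HU_Flag_RIP, 14.4 and 13.5 CPM in Flag_RIP and 6.57 and 5.59 CPM in IgG_RIP, on 33 counts in each IgG library. Every Flag library lay above both IgG libraries, the second HU_Flag_RIP library only just, with log2 fold changes of 1.21 in HU_Flag_RIP (edgeR adjusted p = 0.187) and 1.20 in Flag_RIP (edgeR adjusted p = 0.218). It was the only factor with a higher value at an unadjusted edgeR p under 0.05, which was 0.0212 in HU_Flag_RIP and 0.0219 in Flag_RIP. Of all 10473 genes, 1788 in HU_Flag_RIP and 1607 in Flag_RIP had such a p against IgG_RIP, in either direction. The unadjusted p therefore does not set Klf2 apart. Nr0b1 had 3.59 and 3.28 CPM in HU_Flag_RIP, 8.65 and 4.0 CPM in Flag_RIP and 8.76 and 13.2 CPM in IgG_RIP. Its log2 fold change was -1.67 in HU_Flag_RIP against IgG_RIP (SE 0.53, edgeR adjusted p = 0.0914), on 27 and 20 counts in HU_Flag_RIP. At this depth neither difference passed the test.

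Tbx3 had 34.5 and 18.9 CPM in HU_Flag_RIP, 48.3 and 28.9 CPM in Flag_RIP and 39.4 and 58.1 CPM in IgG_RIP, and its HU_Flag_RIP libraries lay below both IgG libraries (log2 fold change -0.86, edgeR adjusted p = 0.208). Esrrb had 71.6 and 47.1 CPM in HU_Flag_RIP, 104.5 and 74.5 CPM in Flag_RIP and 105.9 and 69.6 CPM in IgG_RIP. Klf4 had 74.8 and 29.7 CPM in HU_Flag_RIP, 92.1 and 55.0 CPM in Flag_RIP and 54.6 and 48.8 CPM in IgG_RIP. Both Flag_RIP libraries of Klf4 lay above IgG, the second only just, and those of Esrrb overlapped with it.

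Klf5 had 64.7 and 22.5 CPM in HU_Flag_RIP, 52.3 and 27.4 CPM in Flag_RIP and 35.04 and 33.2 CPM in IgG_RIP. Zfp42 had 17.3 and 6.73 CPM in HU_Flag_RIP, 13.1 and 15.5 CPM in Flag_RIP and 6.77 and 11.5 CPM in IgG_RIP. For both genes the HU_Flag_RIP libraries stood on either side of IgG. Nr5a2 had 8.37 and 3.28 CPM in HU_Flag_RIP, 12.4 and 3.87 CPM in Flag_RIP and 7.17 and 7.45 CPM in IgG_RIP. Prdm14 had 7.04 and 2.63 CPM in HU_Flag_RIP, 7.10 and 5.75 CPM in Flag_RIP and 5.77 and 4.74 CPM in IgG_RIP, on 16 to 73 counts. No log2 fold change of these 4 against IgG exceeded 0.64 in size, and their edgeR adjusted p-values were at least 0.551.

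**Figure D5:**
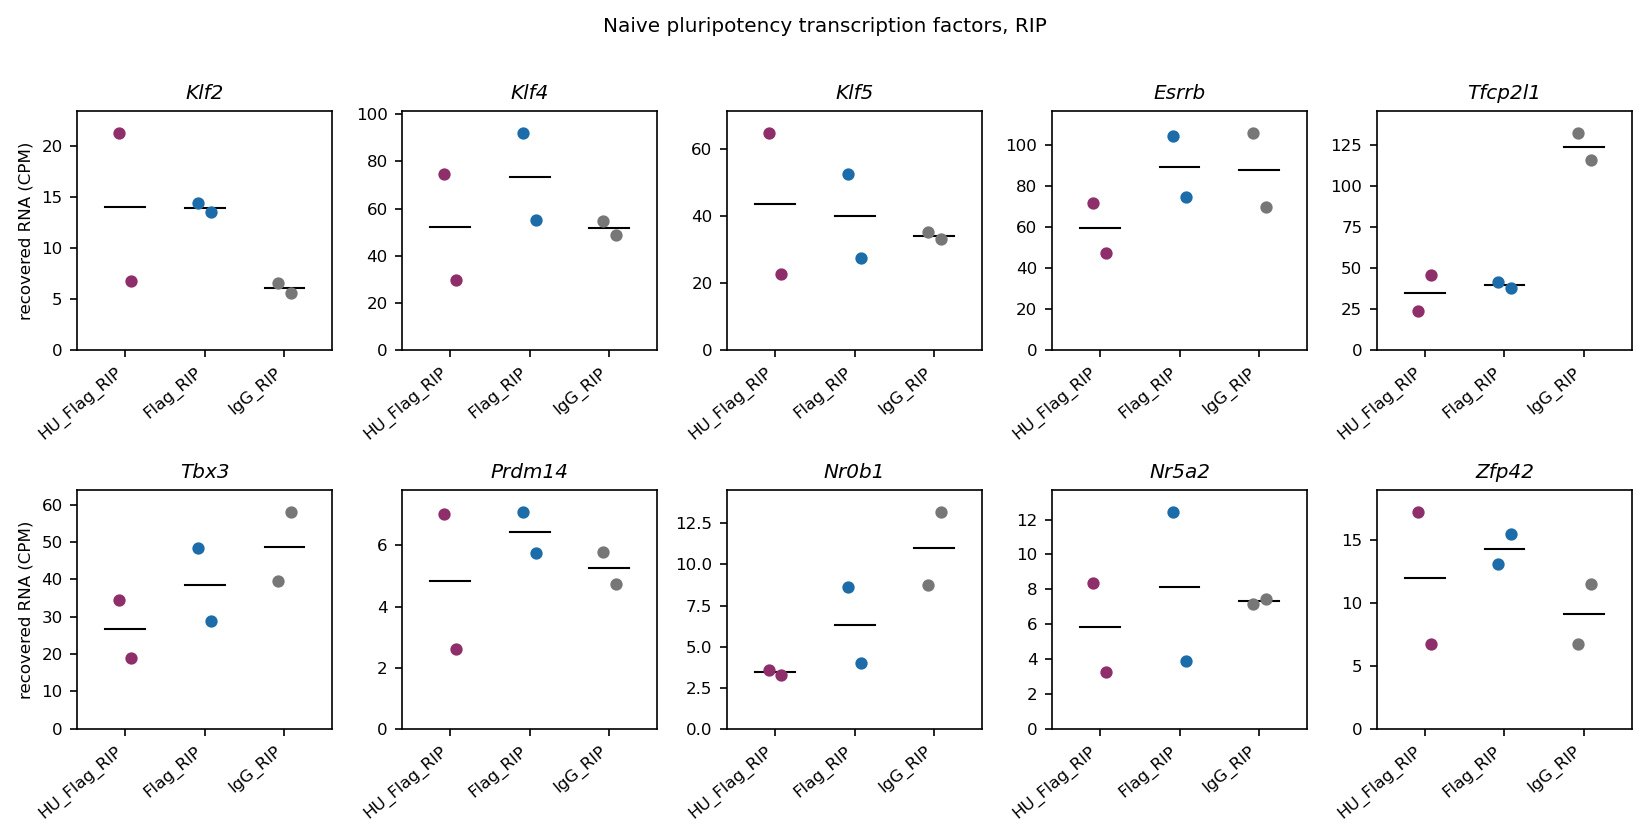
Recovered RNA (CPM, linear axis from 0, a scale of its own per gene) of the 10 factors in the 2 libraries of each RIP group; points are libraries and bars their mean. Tfcp2l1 stood at 23.6 to 45.8 CPM in the 4 Flag libraries and at 132 and 116 CPM in IgG_RIP; the HU_Flag_RIP libraries of Klf2, Klf4 and Klf5 lay far apart.

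HU treatment itself was tested in HU_Flag_RIP against Flag_RIP. None of the 10 factors was called by edgeR, none had an unadjusted p under 0.05, and DESeq2 called none. Of 10473 genes 0.611% were called, and 415 had an unadjusted p under 0.05. The lowest unadjusted p among the factors was 0.0681, for Esrrb, with a log2 fold change of -0.59 (SE 0.31). The median over the 10 was -0.44, against -0.003 over all genes. The libraries of the 2 groups overlapped for 8 of the 10, and those of Esrrb and Nr0b1 lay lower in HU_Flag_RIP. The share of all genes without overlap was not counted, so no HU effect is read from this.

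The message of Dppa5a itself stood at 114 and 114 CPM in HU_Flag_RIP, 170 and 160 CPM in Flag_RIP and 232 and 252 CPM in IgG_RIP; it was lower in HU_Flag_RIP than in IgG_RIP (-1.08, edgeR adjusted p = 0.0168), while in Flag_RIP the difference did not pass the test (-0.55, edgeR adjusted p = 0.254). Among the related lists, 3 of 15 tested naive-state genes were called more recovered in each Flag comparison and none less, at a background of 1.44% and 1.16% of genes. They were Fbxo15 (2.37 in HU_Flag_RIP, 2.87 in Flag_RIP), Zscan10 (2.07 in HU_Flag_RIP, 1.70 in Flag_RIP) and Zfp57 (1.12 in HU_Flag_RIP, 1.41 in Flag_RIP). Of 12 formative and primed genes tested, 2 were also called more recovered in each, Zic2 (2.92 in HU_Flag_RIP, 3.38 in Flag_RIP) and Sox4 (3.25 in HU_Flag_RIP, 3.57 in Flag_RIP), and Utf1 was called less recovered in HU_Flag_RIP (-1.29). Of 4 tested genes of the 2-cell-like state, Zscan4c (2.61 in HU_Flag_RIP, 2.76 in Flag_RIP) and Zscan4d (3.15 in HU_Flag_RIP, 3.21 in Flag_RIP) were called more recovered. Of 4 trophectoderm markers tested, Tfap2c was called more recovered in both (2.36 in HU_Flag_RIP, 1.98 in Flag_RIP), Eomes less in both (-3.25 in HU_Flag_RIP, -3.74 in Flag_RIP) and Tead4 less in HU_Flag_RIP (-3.61). Of 12 FGF-ERK genes, Etv4 (-2.23 in HU_Flag_RIP, -1.95 in Flag_RIP) and Spry4 (-1.84 in HU_Flag_RIP, -1.37 in Flag_RIP) were called less recovered. No LIF-STAT3 gene, Wnt-TCF gene, core factor or paralogue was called by edgeR in any of the 3 RIP comparisons.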

How the data were processed

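RNA was sequenced in 8 RNA-seq and 6 RIP libraries, 2 per group. The authors deposited FPKM per gene, with bounds, for RNA-seq, and raw read counts per symbol for RIP, per the file headers and values. The submitters' processing notes name mm10, HTSeq 0.6.1, Cuffdiff 2.1.1, Cufflinks 2.1.1, TopHat2 2.0.8 and CASAVA 2.19. Strandedness is not stated, and reads of antisense or overlapping genes may be mixed. FPKM were summed over loci per symbol (24883 loci; 1 failed symbol left out), and 27 of 24421 count rows whose symbol reads as a date were left out. Effective fragments were computed from the deposited bounds.

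FPKM were tested with limma-trend 3.58.1 (R 4.3.3) on log2(FPKM + 1) over the 4 libraries compared, leaving out genes whose group means were both under 1 FPKM. Counts were tested with edgeR 4.0.16 (quasi-likelihood, TMM, filterByExpr, 6 libraries in 1 fit), and again with DESeq2 1.42.0. P-values were adjusted over all genes tested (Benjamini-Hochberg) and called under 0.05. TMM factors were 0.782 and 0.827 in HU_Flag_RIP, 0.79 and 0.846 in Flag_RIP and 1.45 and 1.6 in IgG_RIP. The 2 libraries of every group differed by more than counting error (chi-square over its degrees of freedom 2.71 in KD_control and higher elsewhere). Each was treated as a sample, although such a difference does not show that the 2 were separate cultures. Figures were drawn with matplotlib 3.10.9.

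In simulated data, limma recovered 36% of 2-fold and 98% of 4-fold changes for mESC against MEF (12010 genes; 16.2% of calls false), 86% and 99% for the knockdown (11951 genes; 7.04%) and 31% and 97% for KD_control against mESC (12001 genes; 5.88%). For HU_Flag_RIP against IgG_RIP (9567 genes), edgeR found 71% of 4-fold and 93% of 8-fold changes, with 5.2% of calls false. In Flag_RIP against IgG_RIP (9660 genes) the shares were 65%, 91% and 3.7%. In HU_Flag_RIP against Flag_RIP (9717 genes) they were 65%, 83% and 5.73%. Each simulation changed 200 genes, none of the lowest level, and gave the groups of a gene the same spread. Far more genes were called in the RNA-seq comparisons, and the spread there differed between groups. The shares therefore describe the simulated setting and are not the power or error of the real comparisons.

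The members and lists were chosen with earlier results of these data known. All members were named. Of each list, up to 3 called genes with the smallest p per comparison could be named, and for the 4 factors with the closest neighbours the 2 genes of most similar profile (mean of at least 5 FPKM). The alternatives were other scalings, filters, pseudocounts and fits, a replicate block, and leaving out each library.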

Additional observations from a re-analysis of the deposited data

How the results depend on the processing

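Over 690 combinations of a factor, a comparison and an alternative, 586 kept their direction and side of the threshold, 23 lost a call, 35 gained one, 43 changed sign without being called either way, and 3 changed sign with a call. Of the 43, 36 were in RIP comparisons. The 3 were Klf2 (0.54) and Tfcp2l1 (-0.13) in KD_control against mESC without the second mESC library (-1.33 and 0.39 without the first), and Esrrb in Flag_RIP against IgG_RIP with library size alone (-0.86). With an arm of 1 library, its spread is assumed to be that of the other group, and the fits whose spread came from the KD_control pair alone called the most genes. Leaving out each library in turn gave 2835 to 7056 genes called in mESC against MEF (7304 with all). In the knockdown it gave 1 to 8 factors higher (3 with all), 0 to 1 lower (0 with all; Prdm14) and 2415 to 9436 genes (4618 with all). In KD_control against mESC it gave 0 to 5 factors higher, 2 to 5 lower (2 each with all) and 1865 to 10895 genes (5220 with all). In Flag_RIP against IgG_RIP it gave 0 to 1 factors lower and 30 to 248 genes (243 with all). In HU_Flag_RIP against IgG_RIP it gave 0 to 1 factors lower, 0 to 1 higher (Klf2) and 23 to 252 genes (300 with all). In both, the low ends came without an IgG library. In the knockdown, 3023 genes were called with a mean of at least 5 FPKM, 2916 after rescaling to a common sum and 2992 in a fit over all 8 libraries. Median-ratio scaling called 5 factors higher, adding Tbx3 and Zfp42. Rescaling to a common sum moved the median of all genes to 0.02 (-0.11 as deposited). For mESC against MEF, median-ratio scaling moved that median to -0.02 (0.15 as deposited). In KD_control against mESC the fit over all 8 libraries called 4 factors higher, adding Esrrb and Prdm14, and 3 lower, adding Nr5a2 (-0.78), and rescaling to a common sum moved the median to 0.02 (0.19 as deposited). Library size alone moved the median of all genes to -0.87 in Flag_RIP and -0.88 in HU_Flag_RIP against IgG_RIP, with 4 factors lower and 2278 and 2709 genes called, of which 2.81% and 3.4% were higher (49.8% and 50.3% with TMM). Without a filter on low counts 433 and 532 genes were called. In HU_Flag_RIP against Flag_RIP, 41 genes were called with only these groups in the fit (64 with all). The cause of these shifts was not tested.

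Nothing in the labels ties the replicate numbers, which are therefore not taken as pairs. The correlation of same-numbered deviations was between -0.54 (mESC and MEF) and 0.357 (HU_Flag_RIP and Flag_RIP) over the 6 comparisons, and 2 libraries a group do not settle it. With a replicate block, limma called 6408 genes in mESC against MEF, 5296 in the knockdown (4 factors higher, adding Tfcp2l1) and 5928 in KD_control against mESC (3 factors lower, adding Nr5a2). With the block, edgeR called 508 in Flag_RIP against IgG_RIP, 617 in HU_Flag_RIP against IgG_RIP (2 factors lower, adding Nr0b1) and 86 in HU_Flag_RIP against Flag_RIP (no factor). RIP depth limits the low factors: Prdm14 had 16 to 73 counts per library, and Nr0b1 20 to 89.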
